A study of Mus musculus with 24 samples.

Results

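The 10 genes described here encode selenoproteins: *Gpx1*, *Gpx4*, *Sepp1*, *Sepw1*, *Selk*, *Selt*, *Selm*, *Txnrd1*, *Txnrd2* and *Msrb1*. They were taken by symbol from the deposited count tables of RNA (23845 rows) and of ribosome-protected fragments (RPF, the stretches of mRNA covered by a ribosome, 20436 rows). All 10 had a row in both tables and all 10 passed the low-count filter, which left 14516 genes tested in RNA, 12877 in RPF and 12785 in both. The libraries came from hippocampal slices enriched for CA1, from which CA3 had been cut away, of male mice between postnatal day 28 and 42. Mice were wild-type (WT) or their *Tsc2*+/- littermates, in which CMV-driven Cre had removed an allele of *Tsc2* from the germline, so that every cell type carried the deletion. Slices received vehicle (ACSF) or 100 µM DHPG, which activates the group I metabotropic receptors for glutamate, for 5 min, and all slices, controls included, were then exposed to 100 µg/ml cycloheximide. Each of the 4 groups had 3 pools of slices from several mice, and each pool's lysate supplied both an RNA and an RPF library, which gave 12 libraries per assay. In such bulk tissue, fewer cells of a type and less RNA per cell cannot be told apart.

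Selenoproteins contain selenocysteine, an amino acid that resembles cysteine with selenium in place of sulphur and that is inserted at an in-frame UGA. The ribosome reads this UGA as an amino acid rather than as a stop when a stem-loop in the 3′ end of the mRNA recruits a dedicated elongation factor and the selenocysteine tRNA. Most of the enzymes among them are oxidoreductases: glutathione peroxidases reduce peroxides, thioredoxin reductases keep thioredoxin reduced, and *Msrb1* encodes a methionine sulfoxide reductase. Neurons depend on *Gpx4*, which detoxifies lipid peroxides, and on selenoprotein P (*Sepp1*), which carries selenium to the brain.

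The genes differ in where the UGA lies, so the codon is shown for each of them with up to 12 coding bases on either side, 5′ to 3′, as read from RefSeq models on GRCm38.p6 (the files use mm10, the same assembly). Capitals mark the selenocysteine codon, written TGA as in DNA, and of *Sepp1* the first such codon is shown.
Gpx1: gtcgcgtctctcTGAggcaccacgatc
Gpx4: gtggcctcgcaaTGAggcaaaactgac
Sepp1: cttcaagccagcTGAtacttgtgtctt
Sepw1: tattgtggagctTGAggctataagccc
Selk: atggctggtggaTGAggaaggtaa
Selt: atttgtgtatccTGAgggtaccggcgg
Selm: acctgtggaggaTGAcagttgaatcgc
Txnrd1: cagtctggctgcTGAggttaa
Txnrd2: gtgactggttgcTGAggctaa
Msrb1: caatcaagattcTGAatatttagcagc

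All of these codons are exonic and coding. They lie at chr9:108339451-108339453 on the plus strand (*Gpx1*), chr10:80054737-80054739 plus (*Gpx4*), chr15:3274848-3274850 plus (*Sepp1*), chr7:15920464-15920466 minus (*Sepw1*), chr14:29973440-29973442 plus (*Selk*), chr3:58585238-58585240 plus (*Selt*), chr11:3516273-3516275 plus (*Selm*), chr10:82896037-82896039 plus (*Txnrd1*), chr16:18477772-18477774 plus (*Txnrd2*) and chr17:24740158-24740160 plus (*Msrb1*). The windows of *Sepw1*, *Selk* and *Selt* run across a splice junction. The base after the codon was G in 7 genes, and C in *Selm*, A in *Msrb1* and T at the first codon of *Sepp1*. *Sepp1* alone among the 10 had more than 1 selenocysteine codon, with 10, of which the first is codon 59 of 380 and the last codon 377. Because the study counted footprints over the coding sequence without its first and last 30 nt, the UGA fell at different points of the counted stretch. The positions given here are those of the RefSeq models, which run through the UGA to the final stop. Whether the coding sequences used by the study do so too is not stated. In *Sepw1* (codon 13 of 88) 2.9% of the counted stretch precedes it, in *Sepp1* 13.3%, in *Gpx1* 19.8%, in *Selt* 21.6%, in *Selm* 29.4%, in *Gpx4* (longest isoform) 50.4% and in *Msrb1* 86.6%. In *Selk* (codon 92 of 94), *Txnrd1* (612 of 613) and *Txnrd2* (526 of 527) the codon lies in the removed end, so all of the counted stretch precedes it. A *Sepw1* coding sequence ending at the UGA would be wholly removed with these ends, and *Sepw1* had 462 to 1347 RPF counts per library. The counts are per gene, so footprints before and after a UGA were not separated.

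Levels are given as CPM, counts scaled to library size by TMM. Library totals ranged from 14801679 to 24067838 counts in RNA and from 5296006 to 13613673 in RPF. *Tsc2* RNA was lower in *Tsc2*+/- than in WT, by a log2 fold change of -0.52 in vehicle (adjusted p = 2.03e-07, edgeR) and -0.63 in DHPG (adjusted p = 6.41e-10). In RPF libraries of replicates 2 and 3, between 97.9% and 98.5% of non-zero counts were even numbers. Halving these counts changed no call among the 10 genes. Summed RNA of the CA1 pyramidal markers (1640 to 1810 CPM) overlapped between the groups. Summed markers of dentate granule cells were lower in *Tsc2*+/- DHPG slices (47.4 to 58.4 CPM in RNA, 41.1 to 49.5 in RPF) than in WT DHPG slices (63.4 to 74.6 and 60.7 to 74.0 CPM). In RPF they were also lower than in *Tsc2*+/- vehicle slices (58.3 to 61.8 CPM), while in RNA these groups overlapped (51.7 to 62.4 CPM in vehicle). WT vehicle slices (55.7 to 85.6 CPM in RNA, 50.6 to 84.7 in RPF) overlapped with *Tsc2*+/- vehicle slices in both assays. Summed blood markers in RNA were 2.59 to 17.7 CPM in *Tsc2*+/- and 16.3 to 35.2 CPM in WT libraries. The part of the dentate and blood markers in the results below was not tested.

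*Sepw1*, which encodes the small redox protein selenoprotein W, was by a wide margin the most abundant mRNA of the 10. Per kilobase of transcript, RNA in WT vehicle slices was 994 ± 148 CPM for *Sepw1* (SD, n = 3), at percentile 99.9 of the genes compared. *Gpx4* followed with 188 ± 20.6 CPM per kb and *Sepp1* with 113 ± 2.16. *Selm* (64.7 ± 8.16), *Selk* (54.7 ± 4.42) and *Selt* (52.3 ± 4.51), genes of proteins of the endoplasmic reticulum, lay close together. *Gpx1* (33.1 ± 3.42) and *Txnrd1* (17.6 ± 1.05), which encodes the cytosolic thioredoxin reductase, came next. *Msrb1* (6.37 ± 0.302) and *Txnrd2* (4.95 ± 0.744), which encodes the mitochondrial thioredoxin reductase, were lowest, at percentiles 43.0 and 37.1. Only the neighbours *Selk* and *Selt* overlapped over their 3 libraries in this order of RNA levels.

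The order of the footprints was different. Per kilobase of counted coding sequence, RPF in WT vehicle slices was highest for *Selk* (686 ± 43.5 CPM per kb, SD, n = 3), ahead of *Sepw1* (459 ± 38.5) and *Gpx4* (266 ± 31.0). *Selm* (222 ± 30.1), *Selt* (219.7 ± 33.0) and *Sepp1* (181 ± 26.8) overlapped as neighbours, and *Selm* overlapped *Gpx4*. *Gpx1* (82.9 ± 15.1), *Msrb1* (58.3 ± 6.29), *Txnrd1* (44.8 ± 5.93) and *Txnrd2* (9.98 ± 0.798) followed, each apart from the next. *Selk* was thus first in footprints although 4 of the other genes had more RNA, and *Msrb1* stood above *Txnrd1* although its RNA was lower.

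**Figure D1:**
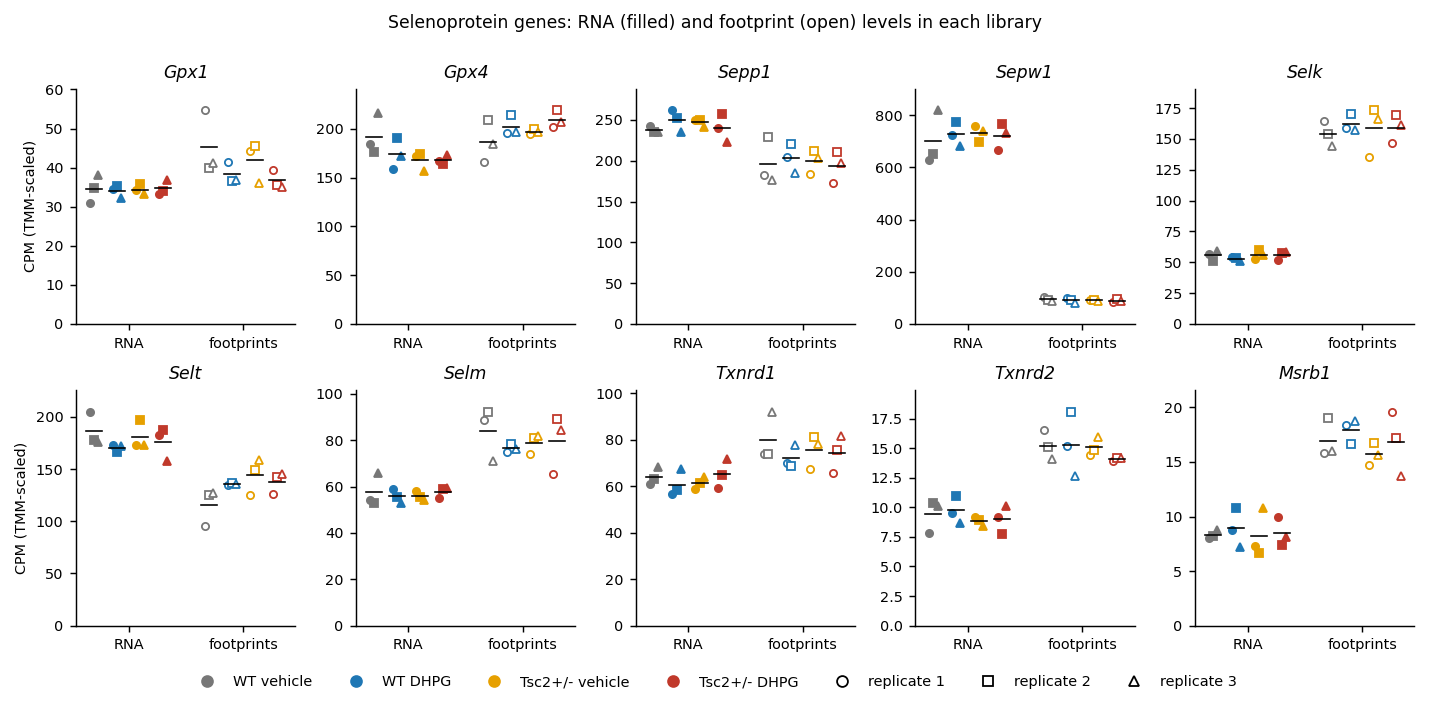
RNA (filled symbols) and footprint (open symbols) levels of the 10 genes in CPM (TMM-scaled) in each of the 12 libraries per assay, by group (colour) and replicate (shape), with the group mean as a line. *Sepw1* lies between 630.3 and 821 CPM in RNA and between 80.6 and 104 CPM in footprints, and *Selk* between 50.7 and 60.1 CPM in RNA and between 136 and 173 CPM in footprints.

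Together the 10 genes took 0.147% to 0.173% of all counts of a library in RNA and 0.0928% to 0.106% in RPF. *Sepw1* made up a median of 47.4% of their RNA counts (range 42.6% to 48.3% over 12 libraries) but 8.83% of their RPF counts (8.25% to 10.8%). *Selk* went the other way, from 3.51% of the RNA counts (3.31% to 3.88%) to 15.8% of the RPF counts (14.3% to 17.1%). *Gpx4* made up 11.3% of the RNA and 20.0% of the RPF counts and *Sepp1* 16.0% and 19.5%, with ranges that did not overlap between the assays. *Selt* (11.4% and 13.3%) was the one gene whose ranges in the 2 assays overlapped. These shares are of raw counts and are not per length.

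**Figure D2:**
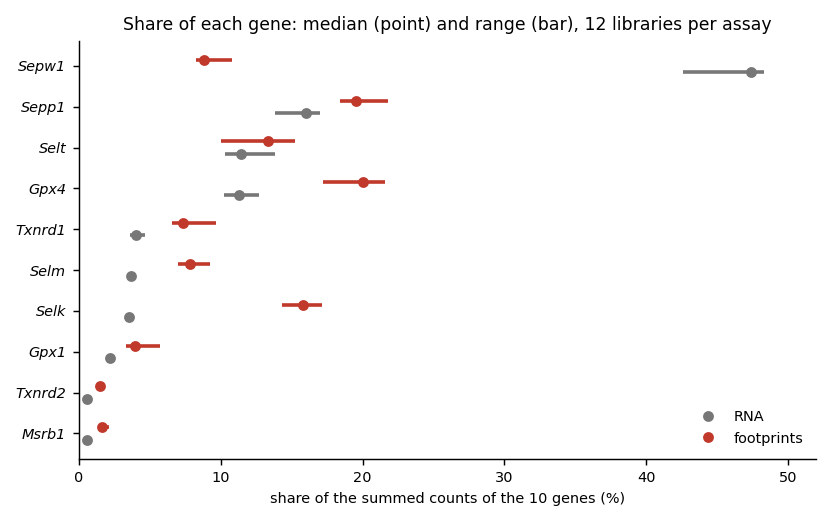
Share of the summed counts of the 10 genes (x axis, %) taken by each gene (y axis) in RNA (grey) and footprints (red), with the median as a point and the range over 12 libraries as a bar. *Sepw1* takes 42.6% to 48.3% of the RNA counts and 8.25% to 10.8% of the footprint counts.

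Footprints per RNA were compared as the log2 ratio of RPF per kilobase of counted coding sequence to RNA per kilobase of transcript, called TE below. TE in WT vehicle slices had a median of 1.16 over 12750 genes, with the 5th percentile at -0.89 and the 95th at 2.96. *Sepw1* was at -1.11 ± 0.32 (SD, n = 3), at percentile 3.52, with the 3 lysates at -0.84, -1.03 and -1.46. It lay at percentile 1.17 among the 1454 genes with a coding sequence under 600 nt, whose median TE was 2.03. At the other end, *Selk* was at 3.65 ± 0.17 (3.71, 3.78 and 3.46) and *Msrb1* at 3.19 ± 0.18 (3.15, 3.38 and 3.03), at percentiles 98.4 and 96.6. In all 12 lysates *Sepw1* had the lowest TE of the 10 genes, *Msrb1* the second highest and *Selk* the highest.

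Between these ends the neighbours in the order overlapped over their 3 lysates. *Selt* (2.06 ± 0.35) and *Selm* (1.78 ± 0.38) lay above the median of all genes in every lysate, and so did *Txnrd1* (1.34 ± 0.11). *Gpx1* (1.32 ± 0.39) and *Txnrd2* (1.02 ± 0.33) lay near that median, below it in 7 and 9 of 12 lysates. *Sepp1* (0.67 ± 0.22) and *Gpx4* (0.50 ± 0.26) were below it in all 12. The 2 glutathione peroxidases did not overlap in the WT vehicle lysates. The *Gpx4* value is the less certain, since 60.1% of the 28-mers of its counted coding sequence occur exactly elsewhere in the genome, and the study kept uniquely mapped reads. The same share was 87.4% for *Selk*, the gene with the highest TE, which has 8 near-copies elsewhere, 18.0% for *Selt*, which has 1, and 0% for the 7 other genes.

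Of the other selenoproteins 10 were measured in both assays, and their TE covered a narrower span, from -0.31 to 2.47, than the -1.11 to 3.65 of the listed genes. *Dio3*, which encodes a thyroid hormone deiodinase, was lowest at -0.31 ± 0.18, followed by *Sephs2* (-0.10 ± 0.17), which encodes the selenophosphate synthetase and is a selenoprotein gene itself. *Dio2*, another deiodinase gene and the most abundant of these in RNA (mean 92.4 CPM), had a TE of 2.39 ± 0.15, and *Seli* of 2.47 ± 0.35. The median TE was 1.33 for the 10 listed genes and 1.2 for these other 10. Across the 10 listed genes, TE and the percentage of the counted stretch before the first UGA had a Spearman rho of 0.51, across the 10 others 0.26 and across all 20 genes 0.37. These are descriptions over genes that share libraries and differ in other ways too. Between TE and the number of codons rho was -0.27 across the listed genes, -0.38 across the 10 others and -0.33 across all 20. Between TE and RNA level, which is itself the denominator of TE, it was -0.50, 0.42 and 0.0075 in the same order. Genes whose whole counted stretch lies before the UGA ranged from 0.65 (*Selo*) to 3.65 (*Selk*). *Sep15* had RPF counts (130 to 165 CPM) but no TE here, because the RNA table holds 27 rows named as dates and none could be assigned to it.

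**Figure D3:**
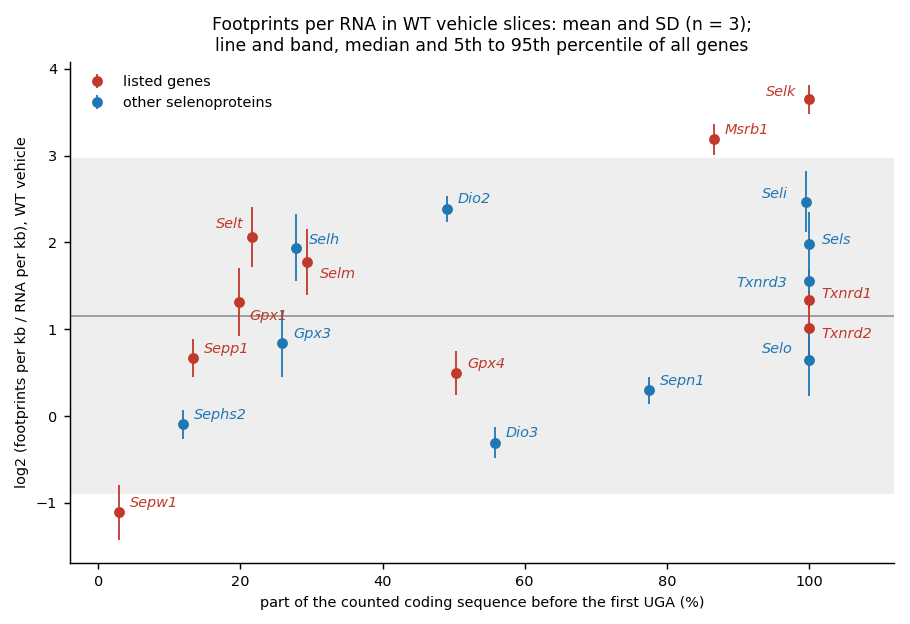
TE in WT vehicle slices (y axis, log2 of footprints per kb over RNA per kb, mean and SD, n = 3) against the percentage of the counted coding sequence that precedes the first UGA (x axis), for the 10 listed genes (red) and 10 other selenoprotein genes (blue). The grey line is the median of all genes (1.16) and the band their 5th to 95th percentile. *Sepw1*, at 2.9%, lies below the band, *Selk* and *Msrb1* above it, and genes at 100% spread from 0.65 to 3.65.

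The design asked whether loss of a *Tsc2* allele, DHPG, or both together changed these genes. None of the 10 genes was called (edgeR quasi-likelihood test, adjusted p under 0.1 over all genes) in RNA, RPF or TE in any of the 7 comparisons, and few genes of any kind were. In RNA the share of all tested genes called was 0.0896% between the genotypes in vehicle and 0.0482% in DHPG, 0% between DHPG and vehicle in WT and 0% in *Tsc2*+/-, 0% for the interaction, 0.227% for genotype averaged over treatments and 0.0207% for DHPG averaged over genotypes. In RPF the shares, in the same order, were 0.0233%, 0.0155%, 0.0311%, 0%, 0%, 0.0621% and 0.0311%. In TE they were 0%, 0%, 0.0548%, 0%, 0%, 0% and 0.0469%. At an unadjusted p under 0.05, 2 of the 70 tests of the 10 genes passed in RNA, 7 in RPF and 10 in TE. Of all genes, 3.47% to 7.49% passed in RNA, 3.81% to 6.82% in RPF and 3.03% to 9.06% in TE, depending on the comparison, and the 7 comparisons share libraries. The median RPF fold change of the 10 genes between the genotypes in vehicle was -0.05, against -0.0021 for all genes, and their median TE fold change with DHPG in WT was -0.03, against -0.00036. By the DESeq2 Wald test the count of the 10 genes called was 1 for RPF in genotype in vehicle and 1 for TE in DHPG in WT, *Selt* both times, and 0 elsewhere. Over all genes, DESeq2 called 10 and 101 in these 2 comparisons, against 3 and 7 by edgeR.

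The changes measured were small. Over the 7 comparisons, log2 fold changes lay between -0.19 and 0.17 in RNA, -0.31 and 0.32 in RPF and -0.39 and 0.37 in TE, with standard errors of 0.037 to 0.25, 0.044 to 0.21 and 0.062 to 0.34. Of the 40 differences between 2 groups in each readout, the 95% interval lay within ±0.5 for 38 in RNA, 40 in RPF and 31 in TE. In counts simulated for genotype in vehicle, changes of 0.5 were called for 92% of the changed genes in RNA, 76% in RPF and 47% in TE. The simulation gave all genes the same low dispersion and changed many genes with ample counts at once, by 0.5 or 1. These rates are therefore not those of the 10 genes, least of all of those with few counts. Groups of 3 did not overlap in RNA for *Gpx4* in genotype in vehicle and for *Selt* in DHPG in WT, against 8.2% and 10.3% of all genes, and for none of the 10 in genotype in DHPG (9.44% of all genes) or DHPG in *Tsc2*+/- (8.69%). In RPF they did not overlap for *Selt* in DHPG in WT (8.96% of all genes) and for *Gpx4* and *Txnrd2* in DHPG in *Tsc2*+/- (9.42%), and for none in genotype in vehicle (8.29%) or genotype in DHPG (10%). In TE *Selt* stood apart in genotype in vehicle (7.92%) and in DHPG in WT (10.5%), and none did in genotype in DHPG (9.36%) or DHPG in *Tsc2*+/- (10%). With 10 genes, 0 to 2 per comparison is near these shares.

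**Figure D4:**
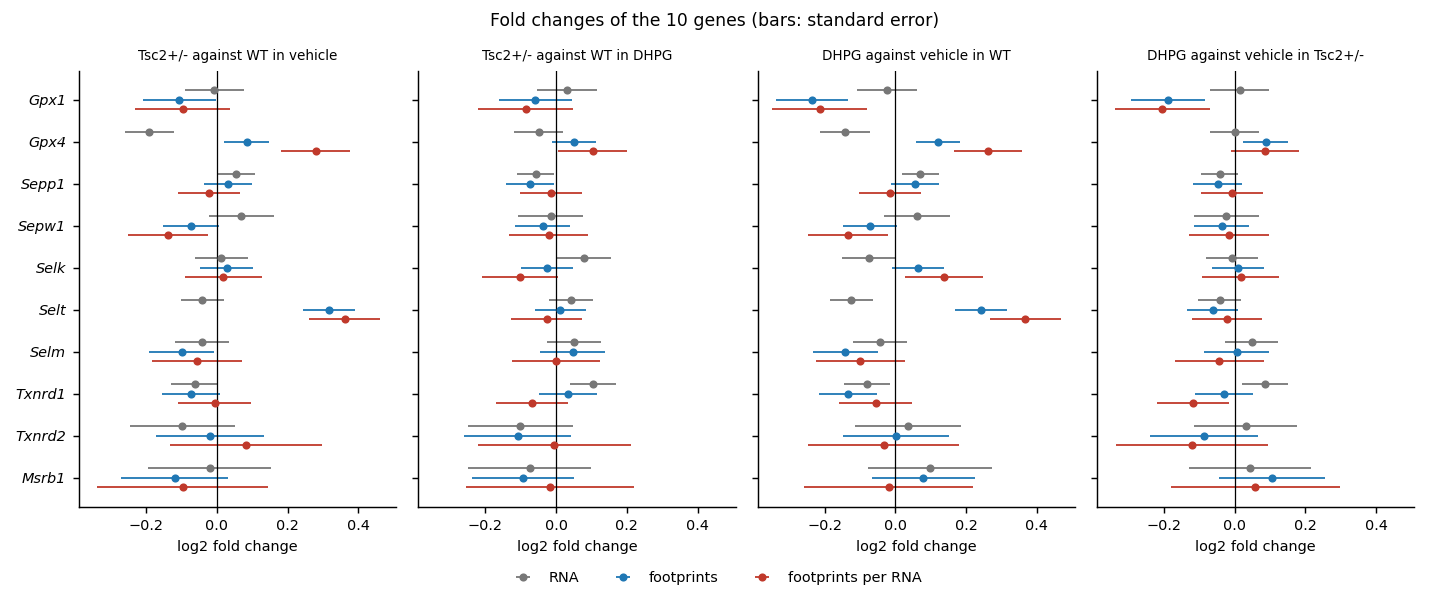
Log2 fold changes (x axis) of the 10 genes (y axis) in RNA (grey), footprints (blue) and footprints per RNA (red) in the 4 comparisons of 2 groups, with standard errors as bars (n = 3 per group). In vehicle and in WT, *Selt* footprints lie at 0.32 and 0.24, and in the other panels *Selt* lies within its standard error of 0 in footprints and in footprints per RNA.

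*Selt*, which encodes the thioredoxin-like selenoprotein T of the endoplasmic reticulum, had the largest footprint difference of the 10 genes. Its RPF level was 95.9, 125 and 127 CPM in WT vehicle, 135, 137 and 136 in WT DHPG, 126, 149 and 159 in *Tsc2*+/- vehicle and 126, 142 and 146 in *Tsc2*+/- DHPG. The WT vehicle slices were thus lowest on average, replicate 1 most of all, and they overlapped with both *Tsc2*+/- groups but not with WT DHPG. In vehicle, RPF was higher in *Tsc2*+/- by a log2 fold change of 0.32 (SE 0.074, 95% interval 0.14 to 0.50, higher in 3 of 3 replicates), a difference that did not pass the test over all genes (adjusted p = 0.232, edgeR). With DHPG in WT, RPF was higher by 0.24 (SE 0.073, higher in 3 of 3 pairs, adjusted p = 0.480, edgeR), which was 0.16 without WT vehicle replicate 1 and 0.11 without replicate 1 of every group. For the genotypes in vehicle the adjusted p was 0.0844 by DESeq2 and 0.0364 without the low-count filter, and ranged up to 0.993 over the other alternatives.

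*Selt* RNA had negative fold changes in both comparisons, -0.04 between the genotypes in vehicle (SE 0.061) and -0.12 with DHPG in WT (SE 0.062). It was 205.0, 178 and 176 CPM in WT vehicle, 173, 167 and 172 in WT DHPG, 173, 197 and 173 in *Tsc2*+/- vehicle and 183, 187 and 158 in *Tsc2*+/- DHPG. TE was 0.36 higher in *Tsc2*+/- than WT in vehicle (SE 0.10, adjusted p = 0.528, edgeR) and 0.37 higher with DHPG than vehicle in WT (SE 0.10, adjusted p = 0.183, edgeR). These comparisons share the WT vehicle slices, in which TE was 1.66, 2.24 and 2.29, against 2.40, 2.47 and 2.41 in WT DHPG, 2.30, 2.35 and 2.63 in *Tsc2*+/- vehicle and 2.22, 2.36 and 2.64 in *Tsc2*+/- DHPG. Without WT vehicle replicate 1 the TE differences were 0.22 and 0.22, and without replicate 1 of every group 0.23 and 0.18. Without WT vehicle replicate 2 they were 0.47 and 0.47, with adjusted p = 0.0679 and 0.0259 (edgeR). Leaving out that lysate also took the count of all genes called in TE from 0 to 75 between the genotypes in vehicle and from 7 to 371 with DHPG in WT. In *Tsc2*+/- the DHPG effect on TE was -0.02, and the difference between the genotypes in this effect was -0.39 (SE 0.14, adjusted p = 0.999, edgeR), or -0.25 without WT vehicle replicate 1 and -0.17 without replicate 1 of every group.

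*Gpx4*, whose product reduces lipid hydroperoxides in membranes, had fold changes of opposite sign in RNA and footprints in the same pair of comparisons. Its RNA was 184, 176 and 216 CPM in WT vehicle, 159, 191 and 172 in WT DHPG, 173, 175 and 157 in *Tsc2*+/- vehicle and 167, 164 and 174 in *Tsc2*+/- DHPG. The WT vehicle libraries were all above those of *Tsc2*+/- vehicle, by a log2 fold change of -0.19 for *Tsc2*+/- (SE 0.069, adjusted p = 0.927, edgeR), which was -0.09 without WT vehicle replicate 3, -0.11 without *Tsc2*+/- vehicle replicate 3 and -0.05 without replicate 3 of every group. *Gpx4* footprints were 166, 209 and 184 CPM in WT vehicle, 195, 215 and 197 in WT DHPG, 195, 200.2 and 197 in *Tsc2*+/- vehicle and 202, 219 and 207 in *Tsc2*+/- DHPG. With DHPG they were higher in 6 of 6 same-numbered pairs, and the averaged fold change was 0.10 in log2 units (SE 0.044, adjusted p = 0.664, edgeR), or 0.07 without WT vehicle replicate 1. TE of *Gpx4* was 0.28 higher in *Tsc2*+/- than WT in vehicle (SE 0.098, adjusted p = 0.814, edgeR) and 0.26 higher with DHPG in WT (SE 0.097, adjusted p = 0.366, edgeR), in 2 of 3 pairs each. WT vehicle replicate 2 had a TE of 0.79, above the 0.39 and 0.31 of the other replicates. Without it these differences were 0.42 and 0.40, with adjusted p = 0.0704 and 0.0356 (edgeR). Over all genes, that fit called 75 in TE between the genotypes in vehicle and 371 with DHPG in WT. The main fit called 0 and 7. Without WT vehicle replicate 3 the TE differences of *Gpx4* were 0.18 and 0.17.

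*Gpx1*, the gene of the abundant cytosolic glutathione peroxidase, had the largest negative footprint differences with DHPG, none of which passed the test. RPF was 54.8, 39.9 and 41.1 CPM in WT vehicle and 41.6, 36.7 and 36.7 in WT DHPG, and 44.2, 45.6 and 35.9 in *Tsc2*+/- vehicle and 39.5, 35.5 and 35.2 in *Tsc2*+/- DHPG. The value with DHPG was below its vehicle partner in 6 of 6 pairs although the groups overlapped, and the averaged difference of -0.21 (SE 0.073, adjusted p = 0.544, edgeR) did not pass the test. It was -0.16 without WT vehicle replicate 1, the highest library. *Gpx1* RNA ranged from 30.9 to 38.0 CPM with fold changes of at most 0.031 in size in the 4 comparisons of 2 groups.

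**Figure D5:**
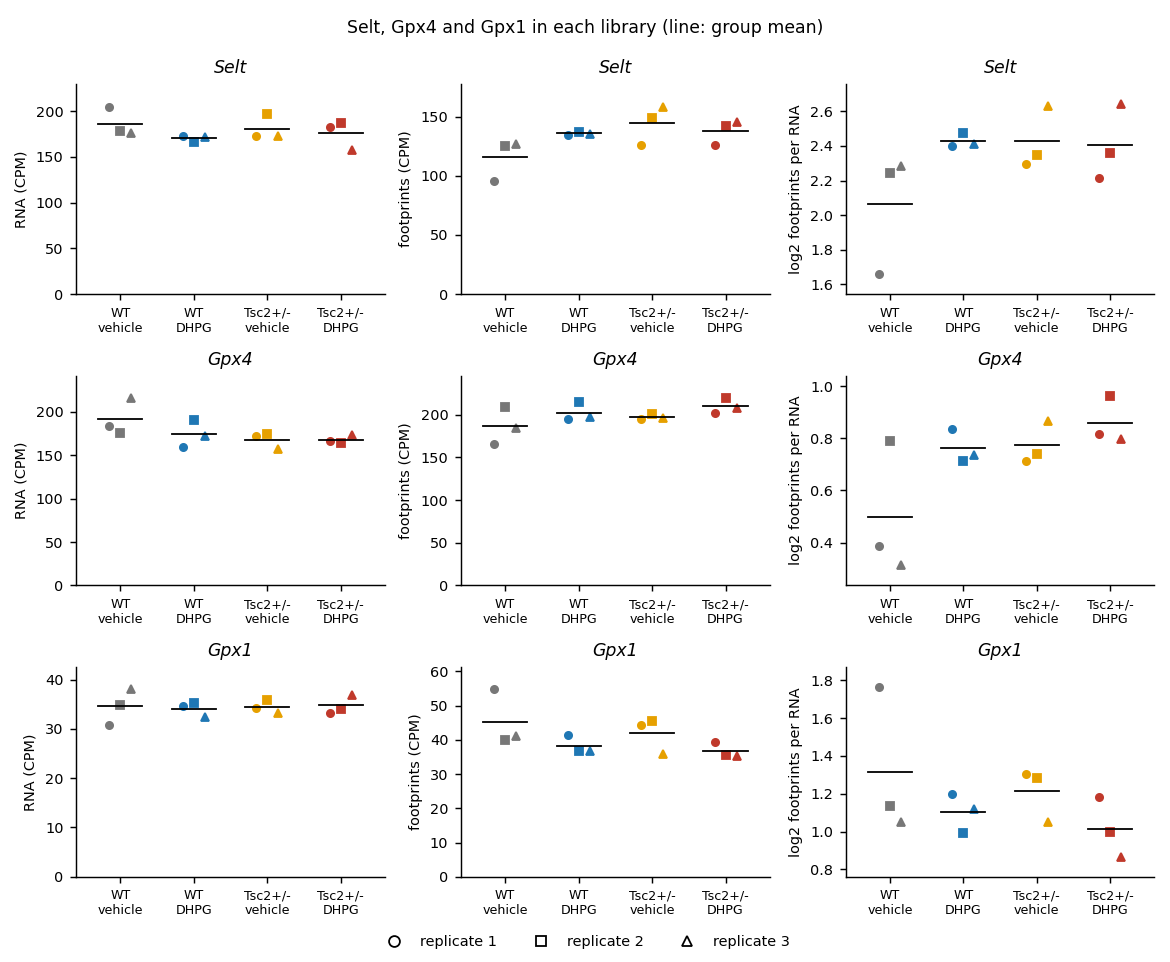
RNA (left, CPM), footprints (middle, CPM) and TE (right, log2 footprints per kb over RNA per kb) of *Selt*, *Gpx4* and *Gpx1* in each library, by group (x axis) and replicate (shape), with the group mean as a line. *Selt* TE in WT vehicle slices (1.66 to 2.29) lies below all WT DHPG (2.40 to 2.47) and *Tsc2*+/- vehicle slices (2.30 to 2.63), and the lowest point is replicate 1.

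Neither thioredoxin reductase gene passed the test in any comparison. *Txnrd1* RNA ranged from 56.4 to 71.7 CPM over 12 libraries (median 62.2) and its RPF from 65.9 to 92.1 CPM (median 74.7), and the groups overlapped in all 4 comparisons of 2 groups. Its largest fold change in RPF among these was -0.14 with DHPG in WT (SE 0.082, adjusted p = 0.779, edgeR). *Txnrd2* had few counts, with 116 to 251 RNA counts and 74 to 208 RPF counts per library. In *Tsc2*+/- its RPF was 14.5, 14.9 and 15.9 CPM with vehicle and 13.9, 14.2 and 14.2 CPM with DHPG. These groups did not overlap but differed by -0.09 on the log2 scale with an SE of 0.15.

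*Msrb1*, whose product repairs oxidised methionine on actin and other proteins, was the most variable of the 10 in RNA, with a coefficient of variation of 16.2% over 12 libraries against a median of 9.53% for all genes. It also had few RNA counts, 119 to 238 per library, and lies 103.9 kb from *Tsc2* on chromosome 17. Its RNA in vehicle was 8.0, 8.21 and 8.76 CPM in WT and 7.32, 6.67 and 10.7 CPM in *Tsc2*+/-, a log2 difference of -0.02 (SE 0.17). In the 4 comparisons of 2 groups its fold changes lay between -0.07 and 0.10 in RNA and between -0.12 and 0.10 in RPF, none of them past the test.

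The transport protein gene *Sepp1* was the least variable in RNA, with a coefficient of variation of 4.6% and levels between 223 and 262 CPM. Its RPF ranged from 172 to 229 CPM, with replicate 2 the highest in 4 of 4 groups. The TE fold change of *Sepp1* was at most 0.02 in size in the 4 comparisons of 2 groups, with an SE of 0.088.

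The groups overlapped for the other 3 genes in every comparison of 2 groups. *Sepw1* RNA was 630.3, 651 and 821 CPM in WT vehicle, 725, 776 and 684 in WT DHPG, 758, 699 and 741 in *Tsc2*+/- vehicle and 667, 767 and 732 in *Tsc2*+/- DHPG, so the spread within WT vehicle exceeded every difference between group means. Its RPF differed by at most 0.07 in size on the log2 scale in these comparisons. *Selk*, whose product takes part in palmitoylation and calcium flux at the endoplasmic reticulum, had RPF levels between 136 and 173 CPM and fold changes between -0.03 and 0.06. *Selm*, whose product is a thioredoxin-fold protein of the same compartment, had RPF levels of 88.8, 92.3 and 71.1 CPM in WT vehicle and 74.9, 78.4 and 76.3 CPM in WT DHPG, a log2 difference of -0.14 (SE 0.091).

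Genes that serve selenocysteine insertion or act beside these enzymes were tested in the same fits, and none was called in any comparison. Of 10 genes of the selenocysteine machinery 9 were tested in RNA and 10 in RPF. The most abundant in RNA were *Secisbp2l* (171 CPM), *Lrp8* (68.6 CPM), which encodes the neuronal receptor for selenoprotein P, and *Sephs1* (27.0 CPM). *Lrp8* had a low TE of -0.63 ± 0.27, the 7.26th percentile. Their fold changes in RPF for genotype in vehicle were -0.03, 0.0009 and 0.09. The 10 other selenoproteins tested in RNA were led by *Dio2* (92.4 CPM), *Seli* (53.0 CPM) and *Sephs2* (41.4 CPM), with RPF fold changes of 0.01, 0.15 and -0.02 in that comparison.

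Among 6 genes of related redox enzymes without selenocysteine, median TE was 1.44. *Msra* (50.1 CPM), *Gsr* (23.3 CPM) and *Msrb2* (15.02 CPM) were the most abundant in RNA, and *Msrb2* had a TE of 1.58 ± 0.27, below the 3.19 ± 0.18 of *Msrb1*. The thioredoxin and peroxiredoxin genes had a median TE of 2.60 over 12 genes, with *Prdx6* (148 CPM) at 2.54 ± 0.26, *Prdx2* (119 CPM) at 3.13 ± 0.22 and *Txn2* (93.0 CPM) at 0.94 ± 0.20. With DHPG in WT, the TE fold change was above 0 for 11 of these 12, with a median of 0.15, against -0.00036 for all genes, and 4 had an unadjusted p under 0.05, as did 9.06% of all genes. With DHPG in *Tsc2*+/- it was above 0 for 5 of the 12, with a median of -0.01, and none had an unadjusted p under 0.05. In vehicle, mean TE was also lower in WT than in *Tsc2*+/- for every gene of this list except *Srxn1* and *Txn1*. Among the lower ones were *Prdx6* (2.54 and 2.64), *Prdx2* (3.13 and 3.265) and *Txn2* (0.94 and 1.15). Mean TE was higher in WT for *Srxn1* (0.22 and -0.04) and *Txn1* (4.30 and 4.22). These differences share the WT vehicle slices with the DHPG comparison in WT. A difference between the genotypes in the DHPG effect was not tested for the list. The smallest adjusted p of the 12 in any readout or comparison was that of *Glrx2* for TE with DHPG in WT (log2 fold change 0.44, SE 0.13, adjusted p = 0.234, edgeR). Of 10 targets of the oxidative stress factor NRF2, *Srxn1* (79.7 CPM), *Gclc* (67.1 CPM) and *Me1* (66.7 CPM) led in RNA, with TE of 0.22 ± 0.11, 0.05 ± 0.10 and 1.17 ± 0.18. No fold change of these lists passed an adjusted p of 0.1 in any of the 3 readouts.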

How the data were processed

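Per the labels and the study's methods, the authors trimmed reads with cutadapt, removed rRNA and tRNA reads with Bowtie2, aligned to mm10 with TopHat2, kept uniquely mapped reads with each molecule counted once, and deposited estimated counts (RSEM, as whole numbers): footprints over coding sequence without 30 nt at each end, RNA over whole transcripts. Every column matched a sample.

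Counts were tested with edgeR 4.0.16 (robust quasi-likelihood F test, TMM scaling, filterByExpr with a minimum count of 10, group plus replicate number) over all genes, with Benjamini-Hochberg adjustment and calls at adjusted p under 0.1. Replicate number was kept in the model because the study treated it as a batch. It was fitted within each assay and does not pair the RNA and RPF of a lysate. Deviations from the group means correlated between same-numbered libraries at 0.0228 to 0.143 in RNA and 0.033 to 0.263 in RPF. TE was tested as the assay by group interaction over 24 libraries. DESeq2 1.42.0, limma 3.58.1 and ComBat (sva 3.50.0) served as alternatives. Intervals at 95% used 6 residual degrees of freedom in RNA and RPF and 12 in TE. Values per kilobase used the isoform with the longest coding sequence in RefSeq. For selenoprotein genes this was the longest among those with a selenocysteine codon. Copies were sought with BLAST+ 2.17.0 (28-mers, and stretches of at least 100 nt at 90% identity). The test was checked on simulated counts. Each library is a pool, so p-values measure the spread between pools. The members and gene lists were chosen with earlier results of these data known. Genes named from the other lists are the 3 with the highest mean RNA CPM and any called in a comparison, with other selenoproteins free to be named by level. *Glrx2* and *Txn1* were named after their values were seen.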

Additional observations from a re-analysis of the deposited data

How the results depend on the processing

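For *Selt*, *Gpx4* and *Gpx1*, every fold change with an unadjusted p under 0.05 kept its direction under all 21 to 23 alternatives. The alternative with a stricter adjusted p of 0.05 used the main fit, so its direction was fixed in advance. The fits without a library or a replicate share most of their data with the main fit. The number of the 10 genes called was 0 in every comparison and stayed 0 in RNA throughout. In RPF for genotype in vehicle it was 1 with the DESeq2 Wald test and 1 with no low-count filter, *Selt* each time. In TE for DHPG in WT it was 1 with the DESeq2 Wald test. Leaving out a replicate number or a single lysate gave 0 to 2 in TE for genotype in vehicle, 0 to 2 for DHPG in WT and 0 to 1 for DHPG averaged, the highest each time without WT vehicle replicate 2, and the cause was not tested.

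Without the replicate block *Selt* RPF in genotype in vehicle was 0.32 with adjusted p = 0.99 (edgeR), and no call among the 10 genes changed. A limma fit on the RPF to RNA ratio of each lysate, which pairs the assays, called none of the 10 either. Over all genes, calls without the block fell from 13 to 6 for RNA in genotype in vehicle, from 7 to 4 in genotype in DHPG, from 33 to 16 in genotype averaged and from 3 to 1 in DHPG averaged. In RPF they fell from 4 to 2 in DHPG in WT, from 8 to 4 in genotype averaged and from 4 to 1 in DHPG averaged, and in TE from 7 to 1 in DHPG in WT and from 6 to 0 in DHPG averaged. DESeq2 called more genes in TE, 101 in DHPG in WT and 65 in DHPG averaged, in RNA 26 in DHPG averaged, and in RPF 10 in genotype in vehicle, 14 in DHPG in WT and 15 in DHPG averaged. Without the low-count filter 17 genes were called for RNA in genotype in DHPG, 63 in genotype averaged, and for RPF 13 in genotype in vehicle, 6 in genotype in DHPG, 16 in genotype averaged and 25 in DHPG averaged. With only the groups compared in the fit, RPF calls in DHPG in WT were 37, and this fit was not run for the interaction or the averaged effects. Leaving out libraries moved the TE calls in DHPG in WT between 0 (without replicate 3) and 371 (without WT vehicle replicate 2). The latter also took RNA calls from 13 to 31 in genotype in vehicle, from 0 to 112 in DHPG in WT and from 3 to 44 in DHPG averaged, RPF calls in DHPG in WT from 4 to 26, and TE calls from 0 to 75 in genotype in vehicle and from 6 to 143 in DHPG averaged. Without replicate 3, RPF calls went from 2 to 47 in genotype in DHPG and from 8 to 69 in genotype averaged, and without WT vehicle replicate 1 from 4 to 25 in DHPG averaged.

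The basal TE of *Sepw1* was -1.48 over the whole coding sequence, that of *Selk* 3.31 and that of *Msrb1* 2.92. With the shortest coding isoform it was 0.76 for *Gpx4*, 1.51 for *Txnrd1* and 2.71 for *Msrb1*. The other 44 of 50 recomputed TE levels and all 320 recomputed group levels moved by less than the SD between replicates. Depth limits *Txnrd2* and *Msrb1* most, with as few as 74 and 84 RPF counts per library. Both of these lowest counts are from WT vehicle replicate 3, where 98.5% of non-zero RPF counts were even, and the cause of the even counts was not tested.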
